A study of Mus musculus with 12 samples.

Results

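The integrated stress response and the charging of tRNA were described through 38 genes, listed by symbol and matched to the Ensembl gene IDs of the deposited count tables. They are 8 regulators, 6 stress effectors, 9 genes of amino acid synthesis, 6 of amino acid transport and 9 aminoacyl-tRNA synthetases. All 38 had an ID among the 56691 mouse genes of the tables, Mars1 under its older symbol Mars. The genes were listed as targets of the transcription factor ATF4, together with Atf4 itself; the rule for membership used no measured value, though earlier results of these data were known when it was set.

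The integrated stress response starts when a kinase that senses missing amino acids, unfolded protein, double-stranded RNA or mitochondrial and haem stress phosphorylates the translation factor eIF2α. General translation then falls, while the mRNA of Atf4 is translated more. ATF4, paired with C/EBP proteins, binds composite promoter elements (CARE sites) of genes for amino acid synthesis, amino acid import and tRNA charging, and of feedback and cell death genes such as Trib3, Chac1 and Ddit3. Since ATF4 is controlled largely through translation, the level of its mRNA is only a partial readout of its activity. In rapidly dividing embryonic stem cells, the same genes supply serine, glycine and one-carbon units.

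The cells were of the male mouse embryonic stem line R1, on a 129/Sv background, grown on gelatin-coated plates with serum and LIF. The medium held non-essential amino acids, which are products of several of the enzymes described here. Cells after 6 days of 2i, an inhibitor pair against MEK and GSK3, were compared with the day 0 cells that the labels call primed, and cells given 2i together with 25 or 50 µM of an inhibitor of MRE11 for 6 days were compared with 2i alone. MRE11 is a nuclease that acts at DNA breaks and replication forks; the inhibitor's name, its vehicle and whether serum stayed in the medium during 2i were not given in the sources used here. Each of the 4 groups held 3 libraries, and all came from this 1 line. No group stayed in serum with LIF until day 6, so 2i, time in culture and any other change of medium cannot be told apart. Whether a group's 3 libraries came from separate cultures is not stated, so the p-values speak for the variation among libraries, which could be purely technical.

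The promoters below are shown because they hold the core of the CARE element, spelled TGATGNAA here, in members that passed the test in at least 1 comparison. Windows of 300 bases, 250 before and 50 after an annotated start, were taken from RefSeq on GRCm38.p6 and searched on both strands. Of 38 members 34 had a window, and 13 of the 34 (38.2%) held the motif. It was held by 1219 of 27025 genes with a window in all (4.51%) and 258 of 9709 that also entered the expression tests (2.66%). Members were listed as targets of ATF4, which binds this element, so a higher share could come from the choice of list alone. Each line gives 60 bases of the strand of the gene, 5′ to 3′, with the motif or its reverse complement in capitals.
Asns: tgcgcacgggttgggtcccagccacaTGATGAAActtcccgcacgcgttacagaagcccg
Herpud1: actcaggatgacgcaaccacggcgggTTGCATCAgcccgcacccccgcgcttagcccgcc
Trib3: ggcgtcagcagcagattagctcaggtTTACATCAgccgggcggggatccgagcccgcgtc
Chac1: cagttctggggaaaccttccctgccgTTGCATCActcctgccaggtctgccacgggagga
Gars: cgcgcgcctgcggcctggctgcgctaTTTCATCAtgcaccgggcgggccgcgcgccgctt
Iars: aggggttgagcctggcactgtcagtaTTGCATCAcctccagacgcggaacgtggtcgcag
Atf3: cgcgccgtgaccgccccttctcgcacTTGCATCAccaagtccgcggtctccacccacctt
Nupr1: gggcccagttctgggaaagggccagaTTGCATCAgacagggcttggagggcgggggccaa

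These stretches lie at chr6:7693199-7693258 on the minus strand (Asns), chr8:94386291-94386350 on the plus strand (Herpud1), chr2:152344013-152344072 on the minus strand (Trib3) and chr2:119351023-119351082 on the plus strand (Chac1). The others lie at chr6:55037945-55038004 on the plus strand (Gars), chr13:49682111-49682170 on the plus strand (Iars), chr1:191183410-191183469 on the minus strand (Atf3) and chr7:126625547-126625606 on the minus strand (Nupr1). The motif began 23 bases before the start in Asns, 30 in Gars, 110 in Atf3, 110 in Nupr1, 112 in Herpud1 and 193 in Chac1, and 7 bases after the start in Iars and 14 in Trib3. By role, 3 of 8 regulators held it, 3 of 6 stress effectors, 2 of 9 synthesis genes, 1 of 4 transporters with a window and 4 of 7 synthetases with a window. The other 5 members with the motif were Vldlr, Pycr1, Slc7a11, Aars and Tars. Among related genes, 4 of 19 other listed ATF4 targets held it, 1 of 9 other cytosolic synthetases, 0 of 14 mitochondrial synthetases and 0 of 16 genes of the ATF6 and XBP1 branches. Of 12 tested members with the motif, 11 were lower and 1 was higher in 2i against primed (median log2 change −0.82). Of 21 without it in their windows, 15 were lower and 1 was higher (median −0.76), and all 4 without a window were lower. At 50 µM against 2i, 6 of the 12 (median −0.57), 8 of the 21 (median −0.36) and 0 of the 4 were lower, and 1 of the 4 was higher. Over all genes tested 20.4% were lower and 20.0% were higher in 2i against primed, and 8.07% and 7.01% at 50 µM. These sets were not tested against each other. A match is a run of letters and says nothing of binding.

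Libraries held 5894561 to 7060126 counts, and 13230 genes passed the low-count filter and entered 1 edgeR fit of all 12 libraries. Levels are CPM, counts from 3′ ends scaled to a common library total, given per library in the order of replicates 1, 2 and 3, and changes are log2 fold changes ± SE, called where edgeR's p, adjusted by Benjamini-Hochberg over all genes tested, was below 0.05. Pluripotency markers summed to 4790 to 5030 CPM in 2i, 4840 to 5010 at 25 µM, 4580 to 5240 at 50 µM and 4320 to 5020 in primed libraries. Of 10 such markers, Nanog, Esrrb and Fgf4 were higher and Utf1 and Tdgf1 were lower in 2i against primed. Pou5f1 added little to the sums, with 548 counts over all 12 libraries, against 43021 for Sox2 and 74461 for Nanog. The reason for its low count was not tested. Replicate 1 stood apart from the other replicates in every group: chi-square values per degree of freedom were 8.82 to 11.7 between it and the others and 2.48 to 6.64 between replicates 2 and 3. Fibroblast markers were low, and apart from Vim their sum moved with the groups. Of the 10, 5 were tested, and Pdgfrb and Vim were not called in any comparison. At 25 µM against 2i, 4 of the 5 log2 changes were below 0 and 1 was above it (0.54, not called). Without Vim, which these cells also express, the list of 10 summed to 14.2 to 19.3 CPM in 2i, 8.0 to 9.6 at 25 µM, 2.98 to 5.50 at 50 µM and 32.8 to 74.0 in primed libraries. Col1a1, Col1a2 and Thy1 were lower in 2i than in primed, Col1a1 was lower at 25 µM than in 2i, and Col1a1 and Thy1 were lower at 50 µM than in 2i, while Dcn, Lum and Postn had 0 counts in the primed libraries and at most 3 counts in any other group. Krt8, a keratin of simple epithelia, averaged 5.16 CPM in 2i and 66.2 CPM in primed cells. Of 8 endoderm markers 2 were tested, and neither had an unadjusted p below 0.05 in any comparison. Of 5 neuroectoderm markers tested, Pax6, Tubb3 and Map2 were lower in 2i against primed and Sox1 was higher at 50 µM against 2i. Of 4 tested mesoderm and trophoblast markers, Mixl1 and Kdr were higher and Krt8 was lower in 2i against primed. The part of these markers in the members' differences was not tested, and in bulk RNA fewer cells of a type and less RNA per cell cannot be told apart.

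Cells in 2i had less RNA of most of these genes than primed cells. Of 37 members tested, 30 were lower, 2 were higher (Asns and Slc7a1) and 5 were not called (Atf4, Cebpg, Sesn2, Gpt2 and Eprs), while over all genes tested 20.4% were lower and 20.0% were higher. The median log2 change of the members was −0.76, against −0.01 over all genes tested. By role the medians were −1.11 for regulators, −1.26 for stress effectors, −0.71 for synthesis, −0.77 for transport and −0.41 for synthetases. The 3 libraries of each group did not overlap for 30 lower and 2 higher members, which was so for 25.8% and 24.6% of all genes tested. The smallest number called lower with 1 library left out was 24, without 2i replicate 3, and 29 were lower without primed replicate 1, which had the most Col1a1 and Krt8. With median-of-ratios (RLE) scaling in place of TMM, 32 were lower and 1 was higher.

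**Figure D1:**
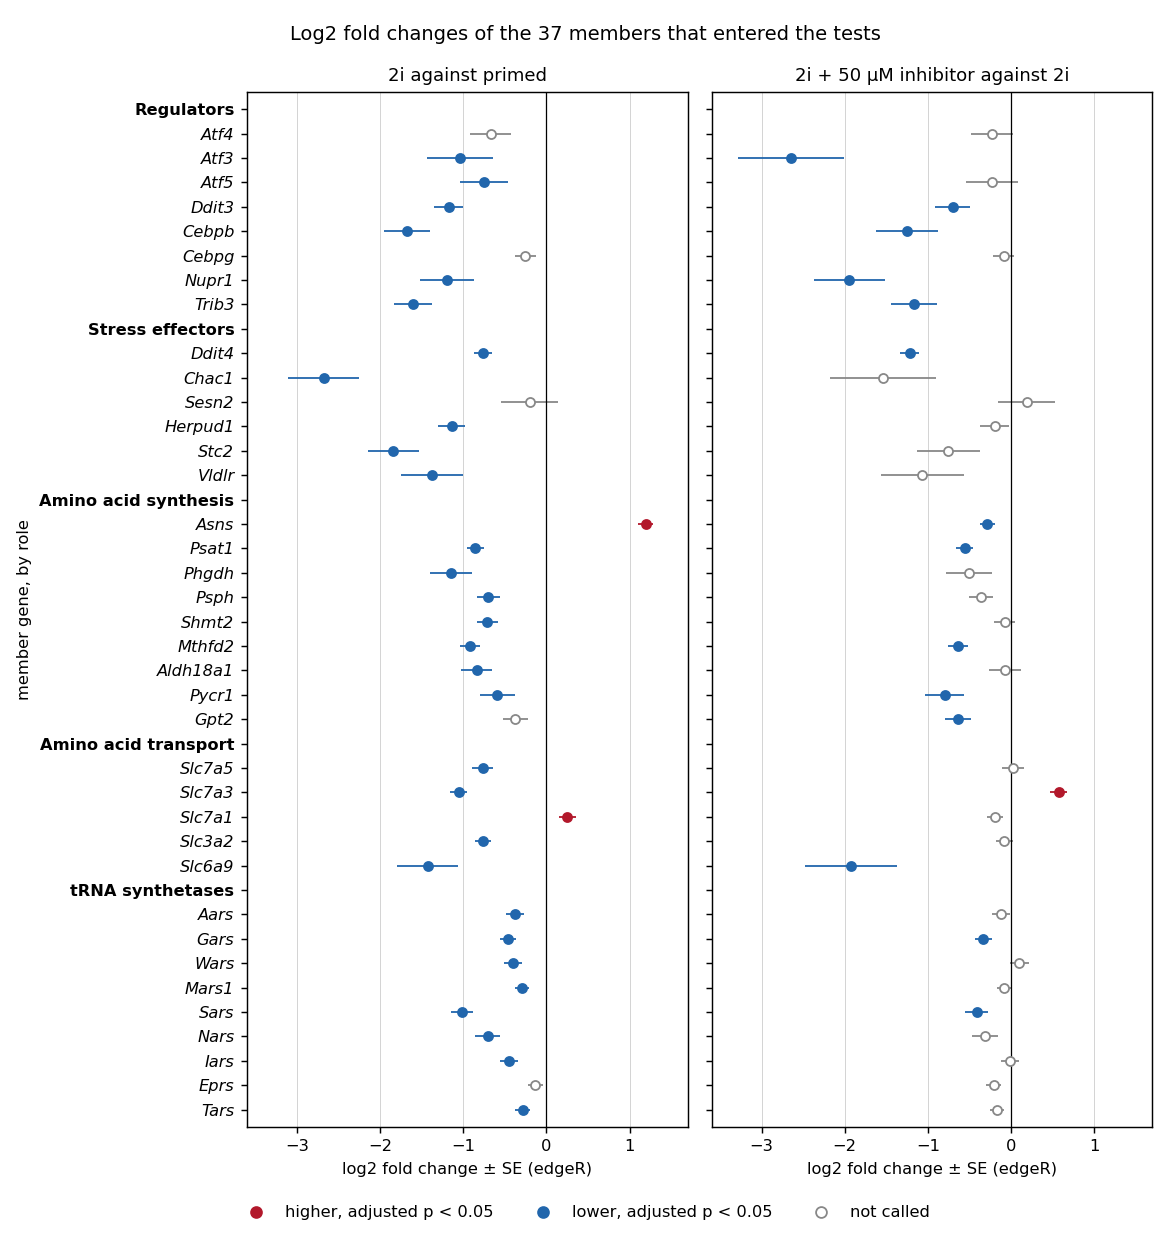
Log2 fold change ± SE (edgeR) of the 37 tested members, grouped by role, in 2i against primed (left) and in 2i with 50 µM inhibitor against 2i (right); filled points passed an adjusted p below 0.05. In the left panel 30 members lie below 0 as filled points and Asns stands alone on the far right; in the right panel 14 are filled below 0 and Slc7a3 is filled above it.

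Atf4 encodes the central factor of the response (ENSMUSG00000042406, chromosome 15, 80255184 to 80257541 on GRCm38). Its RNA stood at 300.5, 279 and 163 CPM in 2i libraries, against 487, 381 and 316 CPM in primed libraries. Every 2i library was below every primed library, but the difference of −0.67 ± 0.25 lay just outside the threshold (adjusted p = 0.0533). It was called with RLE scaling (0.0498), DESeq2 (0.0258) and voom (0.00638), and without primed replicate 3 (0.0311), 2i replicate 1 (0.0402) or 25 µM replicate 1 (0.0408) or 3 (0.0434), so its call in 2i against primed turned on the setting. Ddit3, which encodes the pro-apoptotic factor CHOP (ENSMUSG00000025408, chromosome 10, 127290774 to 127296288), had 12, 12.5 and 8.55 CPM in 2i libraries, against 29.99, 22.5 and 22.4 CPM in primed libraries. The groups lay apart, and Ddit3 was 2.26-fold lower in 2i (−1.18 ± 0.18, adjusted p = 1.4e-05). Its 3′ end overlaps that of Mars1 on the other strand by 68 bases, and the strand setting of the counting is not given, so some counts of either gene could belong to the other; a second ID of Ddit3 had 0 counts.

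Trib3, a pseudokinase that feeds back on ATF4 (ENSMUSG00000032715, chromosome 2, 152337422 to 152344032), had 14.7, 13.9 and 6.94 CPM in 2i libraries, against 42.6, 33.6 and 32.4 CPM in primed libraries. It fell 3.04-fold, by 1.6 ± 0.23 on the log2 scale (adjusted p = 1.6e-05). Cebpb, a C/EBP factor that can pair with ATF4, had 3.69, 4.71 and 2.42 CPM in 2i libraries, against 9.17, 12.9 and 12.8 CPM in primed libraries. These groups lay apart as well, with a change of −1.67 ± 0.28 (adjusted p = 4.0e-05); Cebpb overlaps Tmem189 on the other strand by 908 bases. Nupr1, a small stress-induced chromatin protein, changed by −1.19 ± 0.32 (adjusted p = 0.0100). Atf3, a stress-induced repressor, had 2.30, 1.92 and 1.13 CPM in 2i libraries, against 4.82, 2.86 and 3.43 CPM in primed libraries. These low levels rest on 35 counts over the 2i group and 70 over the primed group, and the change of −1.04 ± 0.40 (adjusted p = 0.0404) lost its call without primed replicate 1 or 3, 2i replicate 2 or 3, or 50 µM replicate 2 (adjusted p of 0.0507 to 0.171), and with DESeq2 (0.0675). Atf5, a relative of ATF4, changed by −0.75 ± 0.29 with overlapping groups (adjusted p = 0.0418); that call was lost without primed replicate 1 or 2, 2i replicate 2 or 3, or 25 µM replicate 2 or 3 (0.0501 to 0.188), with DESeq2 (0.0532) and in the fit of the 2 groups alone (0.0509). Atf5 overlaps Nup62 on the other strand by 571 bases. Cebpg, a dimer partner of ATF4, differed by −0.25 ± 0.12 and was not called (adjusted p = 0.110).

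Stress effectors had the lowest median of the 5 roles, and Chac1 had the largest change of the 37 tested members. Chac1, an enzyme that degrades glutathione (ENSMUSG00000027313, chromosome 2, 119351229 to 119354381), had 8.14, 5.89 and 1.45 CPM in 2i libraries, against 44.3, 29.6 and 26.3 CPM in primed libraries. It was 6.40-fold lower in 2i (−2.68 ± 0.43, adjusted p = 0.00036), and the groups lay far apart although 2i replicate 3 was well below the other 2i libraries. Stc2, a secreted glycoprotein induced by ER stress, had 4.61, 9.28 and 5.97 CPM in 2i libraries, against 20.4, 24.7 and 26.5 CPM in primed libraries, a change of −1.84 ± 0.30 (adjusted p = 0.00014). Herpud1, a protein of the ER-associated degradation machinery, had 14, 15.8 and 10 CPM in 2i libraries, against 26.9, 28.9 and 31.9 CPM in primed libraries (−1.14 ± 0.16, adjusted p = 6.2e-06). Ddit4, the mTORC1 inhibitor REDD1 (ENSMUSG00000020108, chromosome 10, 59949669 to 59951834), had 88.3, 91.9 and 87.6 CPM in 2i libraries, against 157, 159 and 137 CPM in primed libraries. It was 1.69-fold lower with little spread among libraries (−0.76 ± 0.11, adjusted p = 6.6e-06). Vldlr, a lipoprotein receptor that ATF4 induces under ER stress, changed by −1.38 ± 0.37 (adjusted p = 0.00516). Sesn2, a leucine sensor that restrains mTORC1, had overlapping groups and was not called (−0.20 ± 0.34, adjusted p = 0.684).

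**Figure D2:**
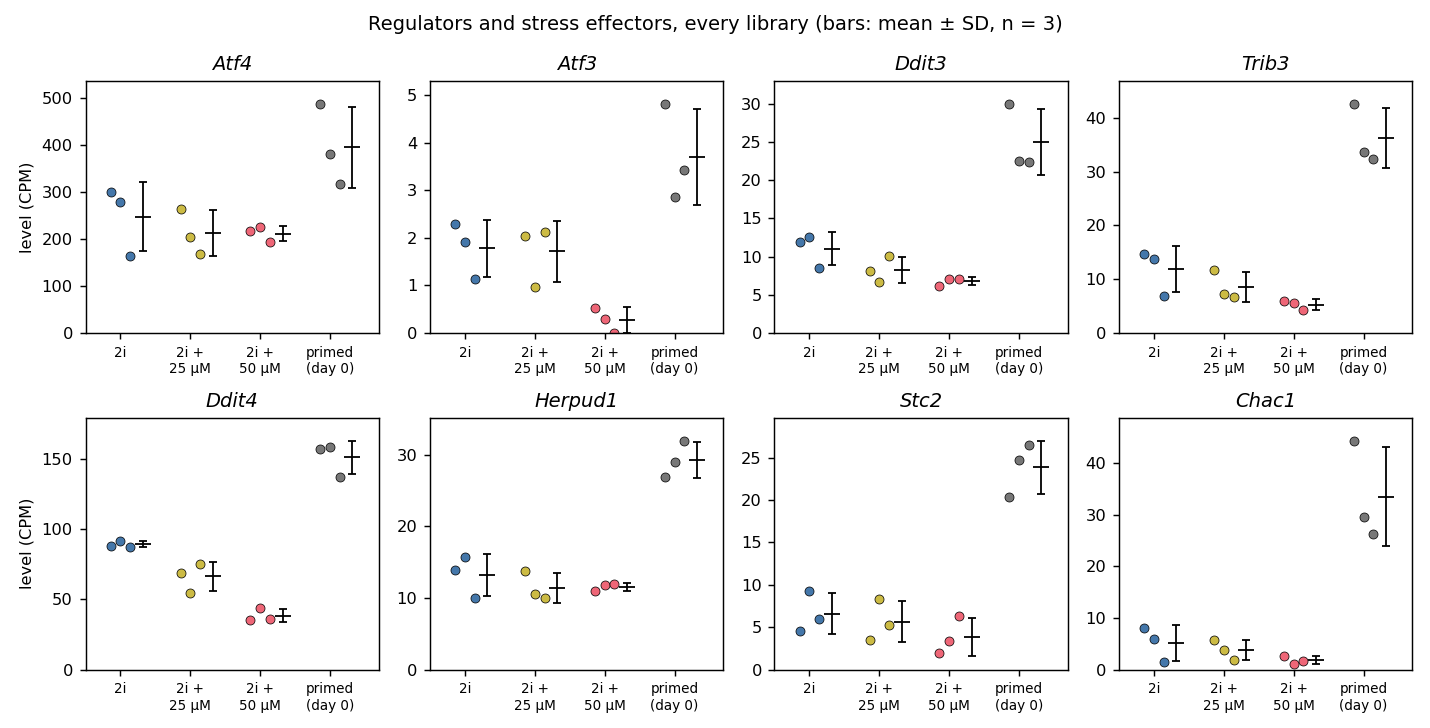
Level in CPM of 4 regulators (Atf4, Atf3, Ddit3, Trib3) and 4 stress effectors (Ddit4, Herpud1, Stc2, Chac1) in each library of 2i, 2i with 25 µM, 2i with 50 µM inhibitor and primed cells (points: replicates 1, 2 and 3 from left to right; bars: mean ± SD, n = 3). Primed libraries are the highest in all 8 panels, and Ddit4 steps down from 89.3 CPM in 2i to 66.4 at 25 µM and 38.3 at 50 µM.

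Among the enzymes, serine synthesis and mitochondrial one-carbon genes were lower in 2i and Asns was higher. Psat1, the aminotransferase of serine synthesis (ENSMUSG00000024640, chromosome 19, 15904678 to 15947337), had 157, 198 and 146 CPM in 2i libraries, against 283, 326 and 297 CPM in primed libraries. It was 1.81-fold lower (−0.85 ± 0.10, adjusted p = 6.2e-07), and the groups lay apart. The other enzymes of that pathway were lower too: Phgdh, which starts it, by −1.15 ± 0.25 (adjusted p = 0.00244) and Psph, which ends it, by −0.70 ± 0.14 (adjusted p = 0.00032). Psph overlaps Cct6a on the other strand by 452 bases, and Cct6a had 54004 counts over all libraries. Mthfd2, the mitochondrial folate dehydrogenase, had 94.9, 125 and 85.5 CPM in 2i libraries, against 206, 189 and 183 CPM in primed libraries (−0.92 ± 0.12, adjusted p = 1.7e-06). Shmt2, which makes glycine from serine in mitochondria, changed by −0.71 ± 0.12 (adjusted p = 8.8e-05). In proline synthesis, Aldh18a1 changed by −0.84 ± 0.19 (adjusted p = 0.00127) and Pycr1 by −0.59 ± 0.21 (adjusted p = 0.0307). Pycr1 had 15.4, 22.5 and 10.2 CPM in 2i libraries, against 22.5, 26.6 and 23.7 CPM in primed libraries. These groups touch, and the call was lost without primed replicate 2 or 3 or 2i replicate 1 or 3 (adjusted p of 0.0560 to 0.158), and in the fit of the 2 groups alone (0.0547). Gpt2, a mitochondrial alanine aminotransferase, was just outside the threshold (−0.37 ± 0.15, adjusted p = 0.0539). Gpt2 was called with RLE scaling (0.0486), without the low-count filter (0.0202), and without primed replicate 1 (0.0116), 2i replicate 2 (0.0114) or 50 µM replicate 1 (0.0344).

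Asns encodes asparagine synthetase, a much-used reporter of ATF4 activity (ENSMUSG00000029752, chromosome 6, 7675169 to 7693254). Its RNA stood at 547, 598 and 492 CPM in 2i libraries, against 211, 258 and 248 CPM in primed libraries. The groups lay far apart in the direction opposite to most members: Asns was 2.29-fold higher in 2i (1.19 ± 0.09, adjusted p = 1.0e-09), and it was called in all 12 fits that left out 1 library. Its promoter stretch holds the motif on the strand of the gene, 23 bases before the start, and the other 7 stretches shown hold it on the opposite strand. That strand was not particular to Asns. Among members not shown, Pycr1 held the motif on the strand of the gene, 103 bases before the start, and was lower in 2i. Slc7a11, with 0 counts in 2i, held it on both strands.

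Amino acid transporters were lower except for Slc7a1. Slc7a3, a cationic amino acid transporter (ENSMUSG00000031297, chromosome X, 101079210 to 101086020), had 144, 128 and 111 CPM in 2i libraries, against 248, 278 and 269 CPM in primed libraries. It was 2.08-fold lower in 2i (−1.06 ± 0.10, adjusted p = 2.9e-08). Slc7a1, another carrier of arginine and lysine, had levels of 75.2 ± 7.85 CPM in 2i and 63.2 ± 2.22 CPM in primed cells (SD, n = 3). That rise of 0.25 ± 0.10 had an adjusted p of 0.0476, and the call was lost without any 1 of the primed libraries, 2i replicate 1 or 2, or 25 µM replicate 2 (0.0519 to 0.157), and under 5 of 6 other settings. Slc7a5 and Slc3a2 encode the chains of the large neutral amino acid transporter LAT1. Slc7a5 had 37.5, 42.9 and 34.7 CPM in 2i libraries, against 62.3, 71.6 and 62.3 CPM in primed libraries (−0.77 ± 0.13, adjusted p = 4.3e-05). Slc3a2 had 184, 239 and 195 CPM in 2i libraries, against 327, 393 and 329 CPM in primed libraries (−0.76 ± 0.10, adjusted p = 1.9e-06). The log2 changes of the 2 chains lay within 1 SE of each other. Slc6a9, the glycine transporter GlyT1, had 1.23, 2.50 and 1.29 CPM in 2i libraries, against 5.28, 3.7 and 4.67 CPM in primed libraries. It changed by −1.43 ± 0.37 (adjusted p = 0.00335), on 33 counts over the 2i group and 86 over the primed group. Slc6a9 overlaps B4galt2 on the other strand by 5939 bases, and B4galt2 had 356 counts over all libraries. Slc7a11, the cystine carrier, was too low to enter the tests: 0 counts in the 2i, 25 µM and 50 µM groups, against 1.09, 1.18 and 0.779 CPM in primed libraries. With a floor of 3 counts over a group, the primed level was 6.57-fold the floor of 2i, 6.58-fold that of 25 µM and 6.24-fold that of 50 µM. The floor covers counting error in the groups at 0 only. The primed level rests on 19 counts, and its own error is not in these ratios.

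**Figure D3:**
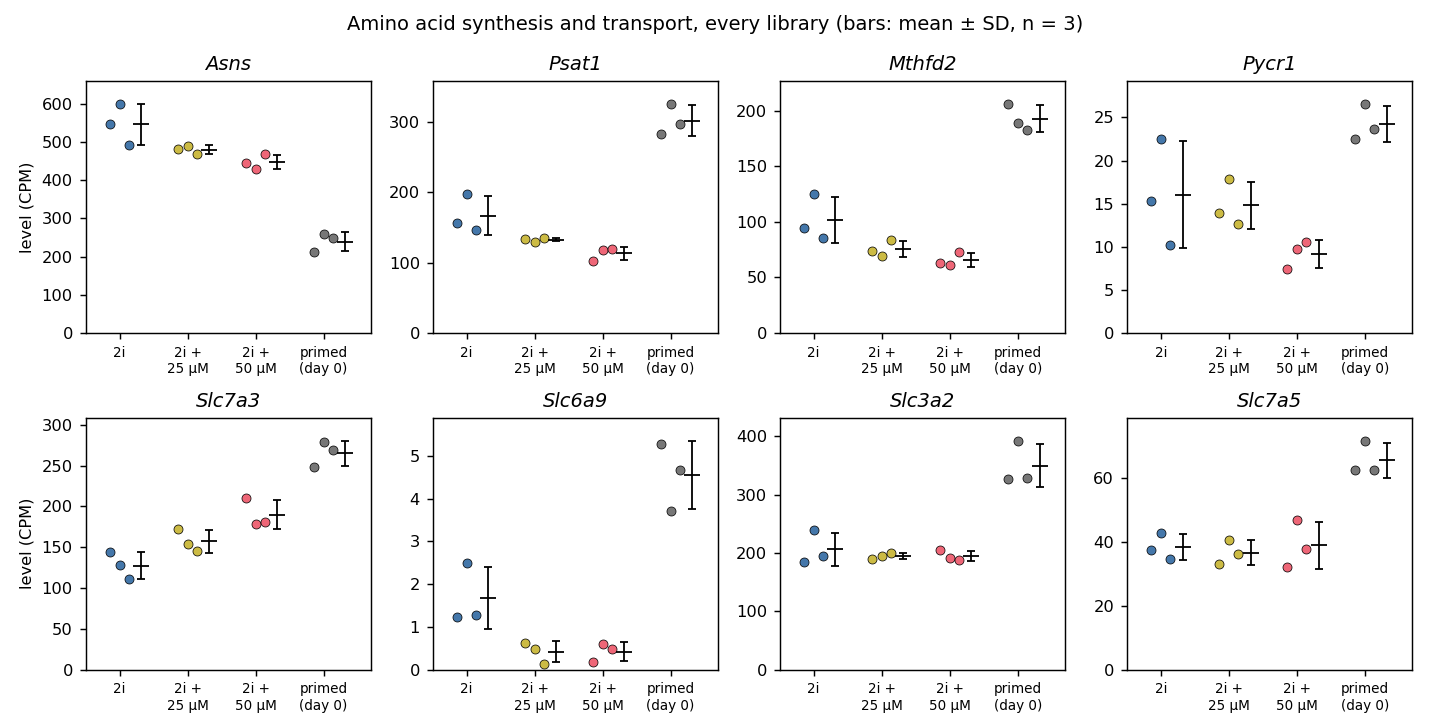
Level in CPM of 4 genes of amino acid synthesis and 4 of amino acid transport in each library of 2i, 2i with 25 µM, 2i with 50 µM inhibitor and primed cells (points: replicates 1, 2 and 3 from left to right; bars: mean ± SD, n = 3). Asns is the panel in which the 2i groups stand above primed, and Slc7a3 climbs with dose from 128 CPM in 2i to 157 at 25 µM and 190 at 50 µM while Psat1 and Mthfd2 decline.

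Of 9 member synthetases, which attach amino acids to their tRNAs in the cytosol, 8 were lower in 2i and Eprs was not called. Sars, for serine (ENSMUSG00000068739, chromosome 3, 108424865 to 108445209), had 116, 107 and 86.1 CPM in 2i libraries, against 223, 211 and 193 CPM in primed libraries, a 2.03-fold difference (−1.02 ± 0.13, adjusted p = 4.6e-06). Nars, for asparagine, had 289, 244 and 201 CPM in 2i libraries, against 460, 359 and 380 CPM in primed libraries (−0.71 ± 0.15, adjusted p = 0.00178). Gars, for glycine, had 216, 248 and 199 CPM in 2i libraries, against 305, 311 and 297 CPM in primed libraries (−0.46 ± 0.10, adjusted p = 0.00054). The groups did not overlap for any of these 3 genes. Iars, for isoleucine, had 124, 154 and 120 CPM in 2i libraries, against 158, 186 and 199 CPM in primed libraries (−0.45 ± 0.11, adjusted p = 0.00176). Wars (−0.41 ± 0.11), Aars (−0.38 ± 0.11), Mars1 (−0.29 ± 0.09) and Tars (−0.28 ± 0.09) were lower by less. Without 2i replicate 3 the calls of Aars, Mars1 and Tars were lost (adjusted p of 0.0752, 0.0510 and 0.0573), and that of Tars also without primed replicate 2 (0.0543) or 2i replicate 1 (0.100). Eprs, for glutamate and proline, differed by −0.13 ± 0.09 with overlapping groups (adjusted p = 0.252).

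At 25 µM of the inhibitor, edgeR called 0 of 37 members in either direction against 2i alone, with 0.454% higher and 0.484% lower over all genes tested. DESeq2 called Ddit4 lower (adjusted p = 0.0371) and limma voom called 0. The 3 libraries of each group did not overlap for 8 lower members and 1 higher member. Over all genes tested that was so for 9.25% and 10.2%. Replicate numbers paired the libraries of these groups, and with the number as a block 4 members were lower (Cebpb, Ddit4, Psat1 and Slc6a9) and 1 was higher (Slc7a3), against 2.26% lower and 2.48% higher over all genes. The median of the members was −0.23, against 0.00 over all genes tested. Cebpb had 1.1, 1.95 and 1.42 CPM at 25 µM and Psat1 had 134, 130 and 135 CPM, all below the 2i libraries given above. Their changes were −1.28 ± 0.37 for Cebpb (adjusted p = 0.114, and 0.0285 with the block) and −0.33 ± 0.10 for Psat1 (0.152, and 0.0123 with the block). Slc6a9 had 0.627, 0.488 and 0.142 CPM at 25 µM, on 8 counts, and a change of −1.99 ± 0.55 (adjusted p = 0.0965, and 0.0355 with the block). Asns had 482, 489 and 468 CPM at 25 µM, just below the lowest 2i library, and was not called (−0.19 ± 0.09, adjusted p = 0.394, and 0.133 with the block).

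At 50 µM, 14 of 37 members were lower than in 2i alone, 1 was higher (Slc7a3) and 22 were not called, while over all genes tested 8.07% were lower and 7.01% were higher. The median of the members was −0.31, against 0.01 over all genes tested, and 33 of the 37 values were below 0. By role, 5 of 8 regulators were lower, 1 of 6 stress effectors, 5 of 9 synthesis genes, 1 of 5 tested transporters and 2 of 9 synthetases. With the replicate block 20 were lower and 1 was higher, against 12.4% and 12.1% of all genes; the 6 added members were Chac1, Stc2, Phgdh, Psph, Nars and Eprs. The count fell to 6 without 2i replicate 2, to 7 without 50 µM replicate 1 and to 8 without 50 µM replicate 2. Of the 15 called members, 7 kept their call in all 12 fits that left out 1 library: Atf3, Nupr1, Trib3, Ddit4, Psat1, Mthfd2 and Slc7a3.

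Among regulators, Atf4 did not differ beyond its spread at 50 µM: it had 216, 225 and 194 CPM there, against the 163 to 300.5 CPM of 2i libraries (−0.23 ± 0.25, adjusted p = 0.591). Trib3 had 5.99, 5.67 and 4.21 CPM at 50 µM, all below the lowest 2i library, and was 2.25-fold lower (−1.17 ± 0.28, adjusted p = 0.00973). Nupr1 had 1.59, 2.83 and 4.70 CPM at 50 µM, against 10.6, 18.4 and 6.29 CPM in 2i libraries, and changed by −1.94 ± 0.43 (adjusted p = 0.00983). Both genes thus stood at their lowest levels of the study in this group. Atf3 had 0.529, 0.298 and 0 CPM at 50 µM, 5 counts in all, and changed by −2.65 ± 0.64 (adjusted p = 0.00773). Ddit3 had 6.17, 7.01 and 7.12 CPM at 50 µM, below every 2i library (−0.70 ± 0.21, adjusted p = 0.0251), but its adjusted p was 0.0606 without 2i replicate 1, 0.111 without 2i replicate 2, 0.0708 without 50 µM replicate 1 and 0.0592 without 50 µM replicate 2. Cebpb had 1.23, 0.895 and 2.43 CPM at 50 µM, which touches the 2i range (−1.25 ± 0.37, adjusted p = 0.0259; 0.132 without 2i replicate 2, 0.0782 without 50 µM replicate 1 and 0.121 without 50 µM replicate 2). Atf5 (−0.22 ± 0.31) and Cebpg (−0.09 ± 0.13) were not called.

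Of the stress effectors, Ddit4 was called at 50 µM. It had 35.4, 43.6 and 35.9 CPM, less than any 25 µM or 2i library, and was 2.33-fold lower than in 2i (−1.22 ± 0.12, adjusted p = 6.2e-07). Chac1 had 2.64, 1.19 and 1.62 CPM at 50 µM, overlapping 2i through its replicate 3; the change of −1.53 ± 0.64 had an adjusted p of 0.136, and of 0.00122 with the block. Stc2 had 1.94, 3.43 and 6.31 CPM at 50 µM (−0.76 ± 0.38, adjusted p = 0.198, and 0.0346 with the block). Chac1 was also called without 2i replicate 3 (0.0115) and Stc2 without 50 µM replicate 3 (0.0425), so both calls turned on the fit and on 1 library. Vldlr (−1.07 ± 0.50), Herpud1 (−0.20 ± 0.18) and Sesn2 (0.19 ± 0.34) were not called.

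Among synthesis genes, Mthfd2 had 62.7, 61.3 and 72.7 CPM at 50 µM, a 1.55-fold difference from 2i (−0.64 ± 0.12, adjusted p = 0.00121). Psat1 had 103, 118 and 120 CPM at 50 µM (−0.56 ± 0.10, adjusted p = 0.00100). Both lay below every 2i library. Asns had 445, 430 and 468 CPM at 50 µM, below the 2i libraries and still above every primed library, a change of −0.29 ± 0.09 (adjusted p = 0.0381). That call was lost without 2i replicate 2 (0.184) or 50 µM replicate 1 (0.0693) or 2 (0.113), and in the fit of the 2 groups alone (0.0553). Gpt2 changed by −0.64 ± 0.16 (adjusted p = 0.00995, and 0.0669 without 2i replicate 2). Pycr1 had 7.4, 9.7 and 10.5 CPM at 50 µM, overlapping the lowest 2i library, and changed by −0.80 ± 0.23 (adjusted p = 0.0269; 0.180 without 2i replicate 2, 0.0903 without 50 µM replicate 1, 0.0620 without 50 µM replicate 2 and 0.0526 with voom). Phgdh (−0.51 ± 0.28) and Psph (−0.36 ± 0.14) were called with the block (adjusted p of 0.0077 and 0.0204) and without 50 µM replicate 3 (0.0103 and 0.0209), and Shmt2 (−0.08 ± 0.13) and Aldh18a1 (−0.07 ± 0.20) were not called in any of these fits.

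Transport split by gene. Slc7a3 had 210, 179 and 181 CPM at 50 µM, above every 2i library and below every primed library, and rose 1.49-fold over 2i (0.57 ± 0.10, adjusted p = 0.00067). Slc6a9 had 0.176, 0.597 and 0.486 CPM at 50 µM, 8 counts in all, and changed by −1.92 ± 0.55 (adjusted p = 0.0217; 0.133 without 2i replicate 2 and 0.0833 without 50 µM replicate 1). The LAT1 chains did not differ beyond their spread: Slc7a5 had 32.1, 46.7 and 37.9 CPM at 50 µM (0.02 ± 0.13) and Slc3a2 had 205, 192 and 188 CPM (−0.08 ± 0.10). Slc7a1 was not called (−0.19 ± 0.10, adjusted p = 0.205).

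Of the synthetases, Sars and Gars were called at 50 µM, both narrowly. Sars had 81.8, 72.2 and 78.5 CPM (−0.41 ± 0.14, adjusted p = 0.0465), and stayed called in 4 of 12 fits that left out 1 library, those without primed replicate 1, 2i replicate 3 or 25 µM replicate 1 or 2; in the others the adjusted p was 0.0546 to 0.154, and it was 0.0550 with voom. Gars had 162, 162 and 202 CPM, the last within the 2i range (−0.33 ± 0.10, adjusted p = 0.0250; 0.160 without 2i replicate 2, 0.0852 without 50 µM replicate 1 and 0.111 without 50 µM replicate 2). Nars had 222, 168 and 202 CPM (−0.31 ± 0.16, adjusted p = 0.196, and 0.00373 with the block) and Eprs changed by −0.21 ± 0.09 (0.123, and 0.0125 with the block). Iars had 128, 123 and 143 CPM and differed by −0.01 ± 0.11. Aars (−0.12 ± 0.11), Mars1 (−0.09 ± 0.09), Tars (−0.17 ± 0.09) and Wars (0.10 ± 0.11) were not called.

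Between 50 and 25 µM, 2 of 37 members were called, both lower, with 0.975% lower and 0.181% higher over all genes tested. Ddit4 had 35.4 to 43.6 CPM at 50 µM, against 68.9, 54.8 and 75.4 CPM at 25 µM, a 1.73-fold difference (−0.79 ± 0.12, adjusted p = 0.00093). Atf3 had 0.529, 0.298 and 0 CPM at 50 µM, against 2.04, 0.976 and 2.13 CPM at 25 µM (−2.60 ± 0.64, adjusted p = 0.0498). With 5 and 34 counts behind it, Atf3 kept its call in 2 of 12 fits that left out 1 library, those without primed replicate 1 or 2i replicate 1, and the adjusted p was 0.0591 to 0.202 in the others. With voom it was 0.0939, and in the fit of the 2 groups alone Atf3 was too low to be tested. The block added Pycr1 among the lower members (−0.68 ± 0.18, adjusted p = 0.0260) and Slc7a3 as higher (0.27 ± 0.08, adjusted p = 0.0366), against 2.83% lower and 1.27% higher over all genes.

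The comparisons of 2i with primed and of 50 µM with 2i share the 2i libraries, and a chance high or low value in those libraries moves them in opposite directions. Asns averaged 447 CPM at 50 µM, 546 CPM in 2i and 239 CPM in primed cells. Slc7a3 averaged 190 CPM at 50 µM, 128 CPM in 2i and 265 CPM in primed cells. For these 2 genes, called in opposite directions in the 2 comparisons, the mean at 50 µM lay between those of 2i and primed cells. Another 12 members were called lower in both comparisons, and 1 was called lower at 50 µM alone. Means of Slc7a1, Slc7a5, Sesn2 and Wars, which were not called at 50 µM, also lay between those of 2i and primed cells.

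Other genes of the pathway were read from lists that hold no members. Over all genes tested, 20.0% were higher and 20.4% were lower in 2i against primed, and 7.01% and 8.07% at 50 µM against 2i. Of 26 further listed ATF4 targets, 24 were tested; in 2i against primed 6 were higher and 7 were lower (median −0.13). Gadd45a, a growth arrest gene, averaged 10.9 CPM in 2i and 52.8 CPM in primed cells (−2.27 ± 0.15), and Slc38a2, a neutral amino acid transporter, averaged 153 CPM in 2i and 316 CPM in primed cells (−1.05 ± 0.10). Bcat1, the cytosolic branched-chain aminotransferase, averaged 346 CPM in 2i and 151 CPM in primed cells (1.19 ± 0.09), and Cbs, which makes cystathionine, averaged 45.9 CPM in 2i and 19.8 CPM in primed cells (1.21 ± 0.12). Their log2 rises were similar in size to that of Asns, but Bcat1 and Cbs were named for their small p. The other genes of the list called higher rose by less. Mean CPM in 2i and primed cells were 99.6 and 53.7 for Cth, 31.75 and 24.4 for Gadd45b, 189.5 and 139.7 for Map1lc3b, and 5.65 and 3.21 for Gpt. At 50 µM against 2i, 7 of the 24 were lower and 2 were higher (median −0.18). Cth, the partner of Cbs in making cysteine, averaged 40.2 CPM at 50 µM and 99.6 CPM in 2i (−1.31 ± 0.12), and Cbs averaged 21.4 CPM at 50 µM and 45.9 CPM in 2i (−1.10 ± 0.12). Xpot, the exporter of tRNA from the nucleus, changed by −0.51 ± 0.09 and Vegfa by −1.41 ± 0.26. Cth (−0.90 ± 0.12) and Cbs (−0.78 ± 0.12) were also lower at 50 than at 25 µM.

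Among 14 other cytosolic synthetases and their scaffold genes, 10 were lower and 1 was higher in 2i against primed. Their median was −0.37, close to the median of −0.41 of the 9 member synthetases. Over all genes tested 20.4% were lower and 20.0% were higher in that comparison, and 8.07% and 7.01% at 50 µM against 2i. Lars, for leucine, averaged 169 CPM in 2i and 292 CPM in primed cells (−0.79 ± 0.08), Farsb changed by −0.46 ± 0.08, Vars by −0.43 ± 0.09 and Hars by −0.40 ± 0.08, while Qars, for glutamine, changed by 0.31 ± 0.08. Of 17 mitochondrial synthetases, 3 were lower and 2 were higher (median −0.14). At 50 µM against 2i, 2 of the other cytosolic synthetases were lower, Cars (−0.44 ± 0.12) and Dars (−0.31 ± 0.10), and 2 mitochondrial ones were higher, Hars2 (0.50 ± 0.16) and Sars2 (0.52 ± 0.17). Each of these 4 calls was lost without at least 1 library, with a highest adjusted p of 0.0811 for Cars (without 50 µM replicate 2), 0.160 for Dars (without 2i replicate 1), 0.193 for Hars2 (without 2i replicate 3) and 0.302 for Sars2 (without 50 µM replicate 3).

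Genes of the ATF6 and XBP1 branches of the unfolded protein response, which answer to ER stress but not to missing amino acids, were read beside them. Shares over all genes tested were 20.0% higher and 20.4% lower in 2i against primed, and 7.01% and 8.07% at 50 µM against 2i. Of 18 tested in 2i against primed, 3 were higher and 1 was lower (median 0.14): Calr (0.42 ± 0.09), Pdia4 (0.58 ± 0.13) and Pdia3 (0.64 ± 0.20) were higher and Xbp1 (−0.65 ± 0.19) was lower. The adjusted p of Xbp1 reached 0.0550 without 2i replicate 1, and that of Pdia3 reached 0.0654 without primed replicate 3. The ER chaperone Hspa5 averaged 652 CPM in 2i and 628 CPM in primed cells and was not called. At 50 µM 1 of 18 was called, Syvn1 (0.38 ± 0.11, adjusted p = 0.0260, and 0.147 without 50 µM replicate 3). Of 17 eIF2 kinases, eIF2 and eIF2B subunits and regulators, 4 were higher and 2 were lower in 2i against primed. Eif2s2, the β subunit of eIF2, averaged 7132 CPM in 2i and 4124 CPM in primed cells (0.79 ± 0.09), and Eif2b5, the catalytic subunit of the exchange factor eIF2B, averaged 207 CPM in 2i and 109.9 CPM in primed cells (0.92 ± 0.13). Eif2b4 changed by 0.57 ± 0.12 and Eif2b3 by −0.43 ± 0.11. The kinase gene Eif2ak4 was also called higher (28.3 CPM in 2i, 22.2 CPM in primed cells). Eif2s1, which encodes eIF2α, was called lower (224 CPM in 2i, 281 CPM in primed cells). Eif2s1 and Eif2s3x, at 92.1 CPM in 2i, thus stood far below Eif2s2, and the reason was not tested. At 50 µM against 2i, Eif2b5 (−0.53 ± 0.13) and Eif2b3 (−0.42 ± 0.11) were lower and Eif2b1 (0.31 ± 0.09) was higher; without 50 µM replicate 3 the adjusted p of Eif2b3 was 0.0657, and without 2i replicate 2 that of Eif2b1 was 0.108. None of these lists was tested against the members or against all genes.

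**Figure D4:**
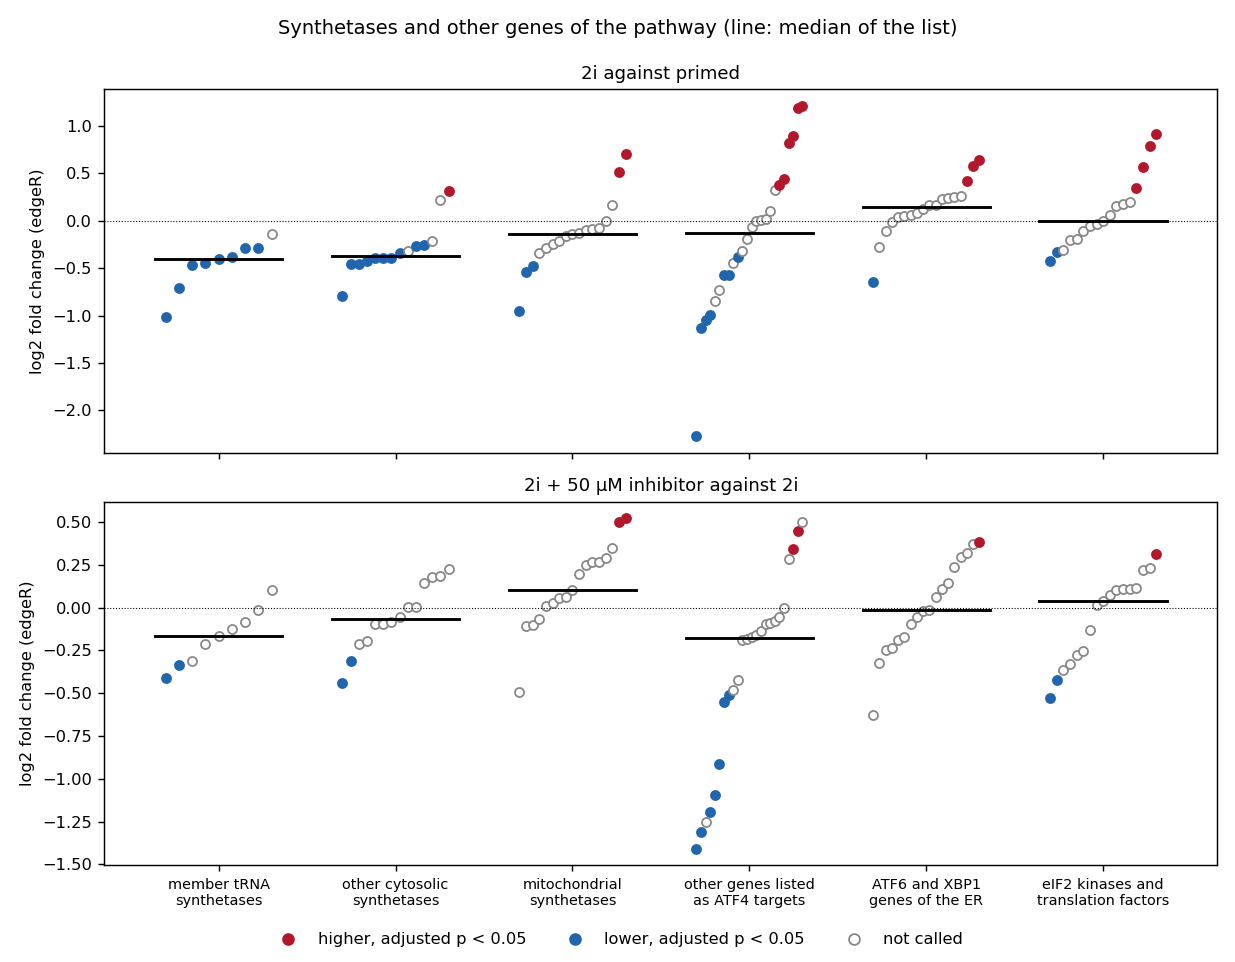
Log2 fold changes (edgeR) of the member synthetases and of 5 lists of other genes in 2i against primed (top) and in 2i with 50 µM inhibitor against 2i (bottom); each point is a gene, filled where the adjusted p was below 0.05, and the line is the median of the list. In the top panel the member and other cytosolic synthetases have medians of −0.41 and −0.37, the mitochondrial ones −0.14 and the ATF6 and XBP1 genes 0.14.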

How the data were processed

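Counts per gene were used as the authors deposited them, 1 table per library. Total RNA was made into QuantSeq 3′ libraries primed with oligo-dT, per the labels' protocols, so counts come from transcript 3′ ends and were not adjusted for length. FastQC, STAR, DESeq2 1.32.0 and GRCm38 (mm10) appear in the submitters' processing notes. The counting tool, annotation, strand setting and handling of molecular identifiers were not given in the sources used here. Tables held 56805 features, of which 114 spike-in features with 2 counts in all were left out.

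Counts were tested in R 4.3.3 with edgeR 4.0.16 (quasi-likelihood F test, TMM, filterByExpr by group, robust, group as the single term, all 12 libraries in 1 fit) and Benjamini-Hochberg adjustment over 13230 genes; the SE is the log2 fold change divided by the square root of F. CPM are counts scaled to a common library total, adjusted by TMM. The floor for a group at 0 was 3 counts over the group. The scripts were tested on simulated counts. Alternatives were no low-count filter, median-of-ratios (RLE) scaling, DESeq2 1.42.0, limma 3.58.1 (voom), a fit of the 2 groups alone, the replicate number as a block, and each library left out. Deviations from group means of same-numbered libraries correlated at 0.155 to 0.314 (25 µM with 2i), 0.115 to 0.249 (50 µM with 2i) and 0.134 to 0.286 (50 with 25 µM), every pair over 0.1, so the numbers paired those libraries; the pairing comes from the data, since the labels do not state what a number marks. For 2i with primed they were 0.0908 to 0.244, which does not meet that rule.

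Members and lists were chosen with earlier results of these data known, and they give no independent support. All members are accounted for; library values are given for Atf4, Ddit3, Asns and up to 4 members per role called in the most comparisons, ties by smallest p, with a few further members' values added after they were seen. Of each other list, up to 4 genes called in a comparison are named, by smallest p, and any others of a count of 5 or fewer, chosen after their values were seen. Promoters are those of called members with the motif, at most 8 by smallest p. Figures were drawn with matplotlib 3.10.9.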

Additional observations from a re-analysis of the deposited data

Results flagged for a closer look

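The effect of the inhibitor differed between 50 and 25 µM for 2 members, tested as the 50 against 25 µM contrast. Both effects are against the same 2i libraries, which cancel in that contrast. Ddit4 was lower by a further 0.79 on the log2 scale at 50 µM (−0.7918, adjusted p = 0.00093), with changes against 2i of −1.22 at 50 µM and −0.43 at 25 µM. Atf3 was lower by a further 2.60 (−2.596, adjusted p = 0.0498), with changes against 2i of −2.65 at 50 µM and −0.05 at 25 µM, on 5 counts over the 50 µM group and 34 over the 25 µM group. The Atf3 call held in 2 of 12 fits that left out 1 library (adjusted p of 0.0591 to 0.202 in the others) and was lost with voom (0.0939), while that of Ddit4 held in all 12 and with voom (0.00396).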

How the results depend on the processing

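No direction of a called member turned under any alternative run. For 2i against primed, the number of higher members was 1 without a low-count filter, with RLE scaling, with DESeq2, with voom and in the fit of the 2 groups alone, 2 with the replicate block, and 1 to 2 with 1 library left out; the number of lower members was 28 to 32 under the other settings, 32 with the replicate block, and 24 to 31 with 1 library left out. At 25 µM against 2i, lower members numbered 3 without the filter, 1 with DESeq2 and 4 with the replicate block, and 1 was higher with the block. At 50 µM against 2i, 11 to 20 were lower under other settings and 6 to 16 with 1 library left out, and Asns was not called in the fit of the 2 groups alone (adjusted p = 0.0553). Between the doses, 4 were lower without the filter, 1 with voom and 1 in the fit of the 2 groups alone, and 1 was higher with the replicate block; 1 to 2 were lower with 1 library left out. The cause of these shifts was not tested. In 2i against primed 25 of 32 calls held in all 12 fits that left out 1 library, and at 50 µM 7 of 15 did. Numbers did not meet the rule for pairing in 2i against primed, where the replicate block added Atf4 (adjusted p = 0.00013) and Gpt2 (0.00232) as lower. Over all genes, the block moved calls (higher and lower) at 25 µM against 2i to 328 and 299, against 60 and 64 without it, at 50 µM against 2i to 1599 and 1641, against 927 and 1067, and between the doses to 168 and 374, against 24 and 129. No filter gave 113 and 155 at 25 µM against 2i and 71 and 258 between the doses, and the fit of the 2 groups alone gave 34 and 49 at 25 µM. With 1 library left out, calls were 10 to 39 higher and 19 to 62 lower at 25 µM without a 2i or 25 µM library, and 505 higher and 712 lower at 50 µM without 2i replicate 2. Atf3, Slc6a9 and Vldlr had under 100 counts in every group, which limits them most.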
